A study of Mus musculus with 18 samples.

Results

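Interferon-stimulated genes were followed in B cells of mouse bone marrow that lacked or kept a working copy of Smchd1, which encodes a chromatin silencing protein. The set held 34 named genes, taken by symbol from the rows of both deposited count tables. All 34 had a row in each table, out of 25965 rows, none was absent, and all 34 passed the filter on low counts in each comparison. The labels describe C57BL/6 animals aged 12 to 16 months and femoral marrow sorted for CD45.2+ B220+ Mac1- cells. Every animal carried Vav.Cre[T/+], a Cre transgene whose Vav promoter is active throughout the blood-forming system, so Smchd1 was removed in all blood lineages and not in B cells alone. The controls were Smchd1[del/+] Vav.Cre[T/+] animals, which also carried a deleted allele; no animal with intact Smchd1 or without Cre was among them. The del/del animals were Smchd1[del/del] Vav.Cre[T/+]. There were 5 del/+ and 5 del/del females in one table, and 4 del/+ and 4 del/del males in the other.

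Type I interferons are secreted alarm signals. They bind the receptor chains IFNAR1 and IFNAR2, which activate the kinases JAK1 and TYK2, and these drive the assembly of a complex that contains STAT2 and IRF9. The complex binds an element in the promoters of interferon-stimulated genes, whose products sense, degrade or trap viral nucleic acid, tag proteins with the ubiquitin-like ISG15, and in the case of USP18 damp the signal again. Blood cells express many of these genes at a low tonic level without infection, and plasmacytoid dendritic cells, which can carry B220, are strong producers of interferon.

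The promoters are shown because the genes were grouped as targets of that complex, and the element can be read in them. RefSeq promoter windows (GRCm38.p6, 250 bases before to 50 after the start of transcription, 300 bases in all) were found by symbol for 24 of the 34 genes. The motif searched was 2 GAAA repeats with any 2 bases between them, on either strand, with overlapping matches counted. It was present in the window of 11 of the 24 genes (45.8%), compared with 3.44% of all 32851 windows and 3.99% of the 27025 genes that had one. The 11 were Stat2, Ifih1, Ddx60, Ifit1, Ifit3, Oas1a, Oas3, Rsad2, Ifitm3, Isg15 and Trim30a. Below are the 150 bases before the start for 5 genes whose levels are described later, written 5′ to 3′ on the gene's strand, with each matching GAAA, or TTTC where the match lies on the other strand, in capitals.
Isg15 (chr4:156200819-156200968, minus strand): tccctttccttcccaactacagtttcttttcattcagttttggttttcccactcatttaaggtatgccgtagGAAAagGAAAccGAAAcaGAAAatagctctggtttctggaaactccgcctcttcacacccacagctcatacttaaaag
Ifit1 (chr19:34640739-34640888, plus strand): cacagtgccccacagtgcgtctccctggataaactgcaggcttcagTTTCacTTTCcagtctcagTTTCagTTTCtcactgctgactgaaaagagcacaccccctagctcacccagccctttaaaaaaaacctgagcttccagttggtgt
Ddx60 (chr8:61927937-61928086, plus strand): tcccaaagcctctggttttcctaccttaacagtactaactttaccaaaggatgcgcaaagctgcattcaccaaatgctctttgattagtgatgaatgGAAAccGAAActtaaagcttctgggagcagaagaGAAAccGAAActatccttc
Oas1a (chr5:120907526-120907675, minus strand): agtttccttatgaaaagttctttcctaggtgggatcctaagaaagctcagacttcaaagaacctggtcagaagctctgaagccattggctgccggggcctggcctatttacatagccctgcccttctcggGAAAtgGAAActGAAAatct
Oas3 (chr5:120777660-120777809, minus strand): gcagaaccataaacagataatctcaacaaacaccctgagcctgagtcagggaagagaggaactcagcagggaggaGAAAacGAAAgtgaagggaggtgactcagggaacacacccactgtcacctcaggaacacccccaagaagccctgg
In Isg15 the repeats follow each other in an unbroken series of 3 overlapping matches, the farthest beginning 78 bases before the start. Ddx60 has 2 separate matches at 53 and 19 bases before the start, Oas1a has 2 overlapping ones close to the start, Ifit1 has 2 on the opposite strand, and Oas3 has 1. A match describes letters and was not tested as a binding site. Windows were not found by symbol for Oas2, Mx1, Mx2, Ifi27l2a, Usp18, Dhx58, Zbp1, Rtp4, Parp9 and Parp14.

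Counts per library summed to between 11650350 and 29405395 in females and between 9788112 and 22614546 in males. Smchd1 itself was lower in every del/del library: 128 to 173.5 CPM (read counts scaled to library size with TMM factors) against 235 to 271 in del/+ females, and 162 to 197 against 274 to 324 in del/+ males. The B cell receptor genes Cd79a and Cd79b were high in every library, at 1036.7 to 1575.9 CPM and 1570.5 to 1961.7 CPM. Markers of other blood cells were also detected throughout: 11 plasmacytoid dendritic cell markers summed to 320.0 to 1379 CPM, 16 neutrophil and monocyte markers to 1069 to 6156 CPM, 10 erythroid markers to 140.2 to 963 CPM, and 10 T and NK cell markers to 101 to 206 CPM. In such bulk samples, fewer cells of a type and less RNA per cell cannot be told apart.

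Single libraries stood apart in these genes, mainly among males. Del/+ male 1, the smallest library, was above the other 3 del/+ males in 32 of the 34 genes, where 23.6% of all genes tested did the same, and its median difference from them was 0.86 on the log2 CPM scale. Del/del male 2 was above the other 3 del/del males in 32 of 34 genes, against 22.3% of all genes, with a median difference of 0.51. Del/+ male 4 was below the rest of its group in 23 genes (24.3% of all genes), with a median of -0.55. Among females, del/del female 1 held the highest of the 10 levels for 20 genes (11.3% of all genes), and del/del female 2 was below the other del/del females in 25 genes (25% of all genes), with a median of -0.47. The same comparison over all genes gave medians of -0.01 to 0.03. These libraries belong to both genotypes. The number of positive genes and the median in males are given with and without del/+ male 1 and del/del male 2. For some genes, though not for all whose male values turn on these libraries, values without one or both are given too.

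**Figure D1:**
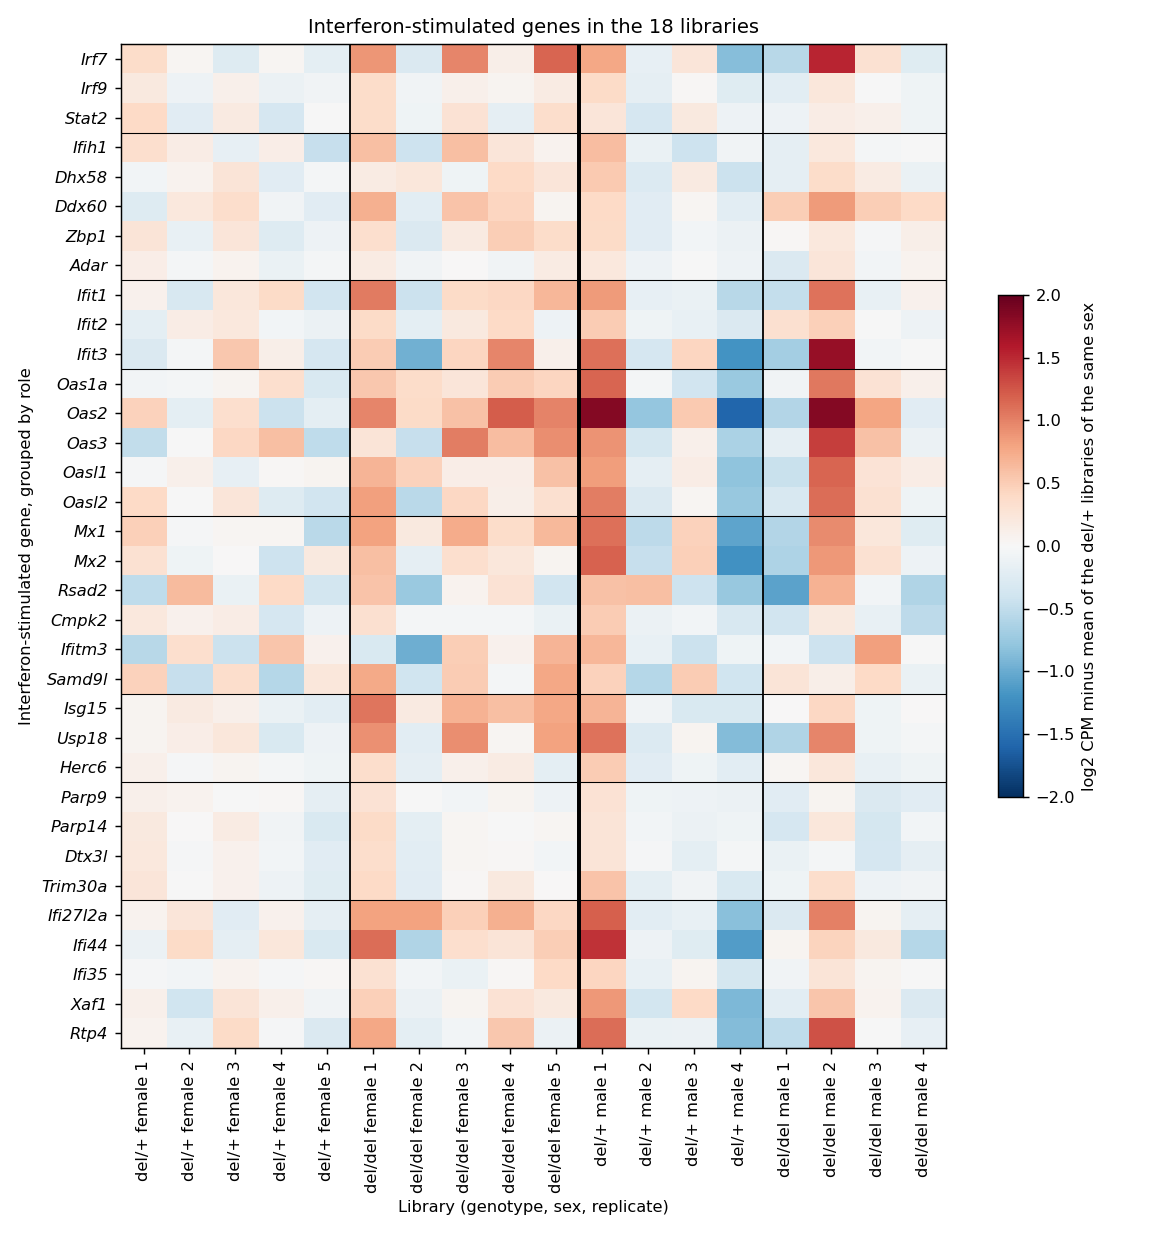
Heat map of the 34 interferon-stimulated genes (rows, in role groups) in the 18 libraries (columns), as log2 CPM minus the mean of the del/+ libraries of the same sex, from -2 (blue) to 2 (red). Del/+ male 1 and del/del male 2 are red in nearly every row, and del/+ male 4 is mostly blue; the del/del females other than 2 are mostly red.

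Levels of different genes were compared per kilobase of exon (GENCODE M21), with the exons of all annotated transcripts of a gene merged. This length can exceed that of a single transcript, which lowers the level per kb of such genes. In del/+ females Ifi27l2a stood first at 102 ± 13.6 CPM per kb (SD, n = 5), followed by the antiviral factor gene Samd9l at 66.1 ± 20.5 and the ubiquitin ligase Trim30a at 37.3 ± 4.70. Ifi35, Stat2, Irf9 and Adar followed at 23.6, 22.5, 21.1 and 20.1 CPM per kb. At the low end lay Ifit1 at 0.883 ± 0.209, Ddx60 at 0.733 ± 0.142 and Oas3 at 0.728 ± 0.259. Neighbours in this order were mostly not separated: of 33 neighbouring pairs only Trim30a over Ifi35 and Ifit2 over Oasl1 had ranges that did not overlap. The 4 leading genes were the same in del/+ males.

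In females, 33 of the 34 genes had a higher fitted level in del/del than in del/+ cells, and Rsad2 was the exception at -0.02. The median log2 fold change was 0.22, beside -0.0044 over all 13501 genes tested, of which 48.8% were positive. Ifi27l2a, a mitochondrial protein gene and a common marker of interferon exposure, was the only gene called at an adjusted p under 0.05 (edgeR quasi-likelihood test, Benjamini-Hochberg over all genes), where 0.252% of all genes were called. A further 7 genes (Oas2, Isg15, Oasl1, Mx1, Irf7, Oas1a and Usp18) had an unadjusted p under 0.05, which makes 8 of 34 beside 3.12% of all genes higher in del/del at that level. The del/del and del/+ females did not overlap for 3 genes, Ifi27l2a, Isg15 and Oasl1, where 0.83% of all genes were higher without overlap. The 8-gene count became 13 without del/del female 2, 6 without del/+ female 5 or del/del female 5, and 2 in the fit of all 18 libraries. The median log2 fold change was 0.33 without del/del female 2 and 0.14 without del/del female 1. The number of positive genes was 27 of 34 without del/del female 1 and 29 without del/+ female 5. It was 32 to 34 when any other single female was left out.

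In males the set did not separate by genotype. Fitted levels were higher in del/del for 20 of 34 genes, the median log2 fold change was 0.04, and edgeR called none (DESeq2 also none), where 0.119% of all 13413 genes were called. Ddx60, which encodes a helicase that assists RNA sensing, was the single gene at an unadjusted p under 0.05, where 2.32% of all genes were higher at that level. It was also the single gene whose groups did not overlap, beside 1.44% of all genes. The direction of the other genes turned with single libraries: 29 of 34 were positive without del/+ male 1 (median 0.34), 6 of 34 without del/del male 2 (median -0.14), and 27 of 34 without both (median 0.11). Without del/+ male 2 or del/+ male 4, 13 and 11 were positive (medians -0.05 and -0.06). With animals of nearest number as blocks, 27 of 34 were positive and the median was 0.08.

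**Figure D2:**
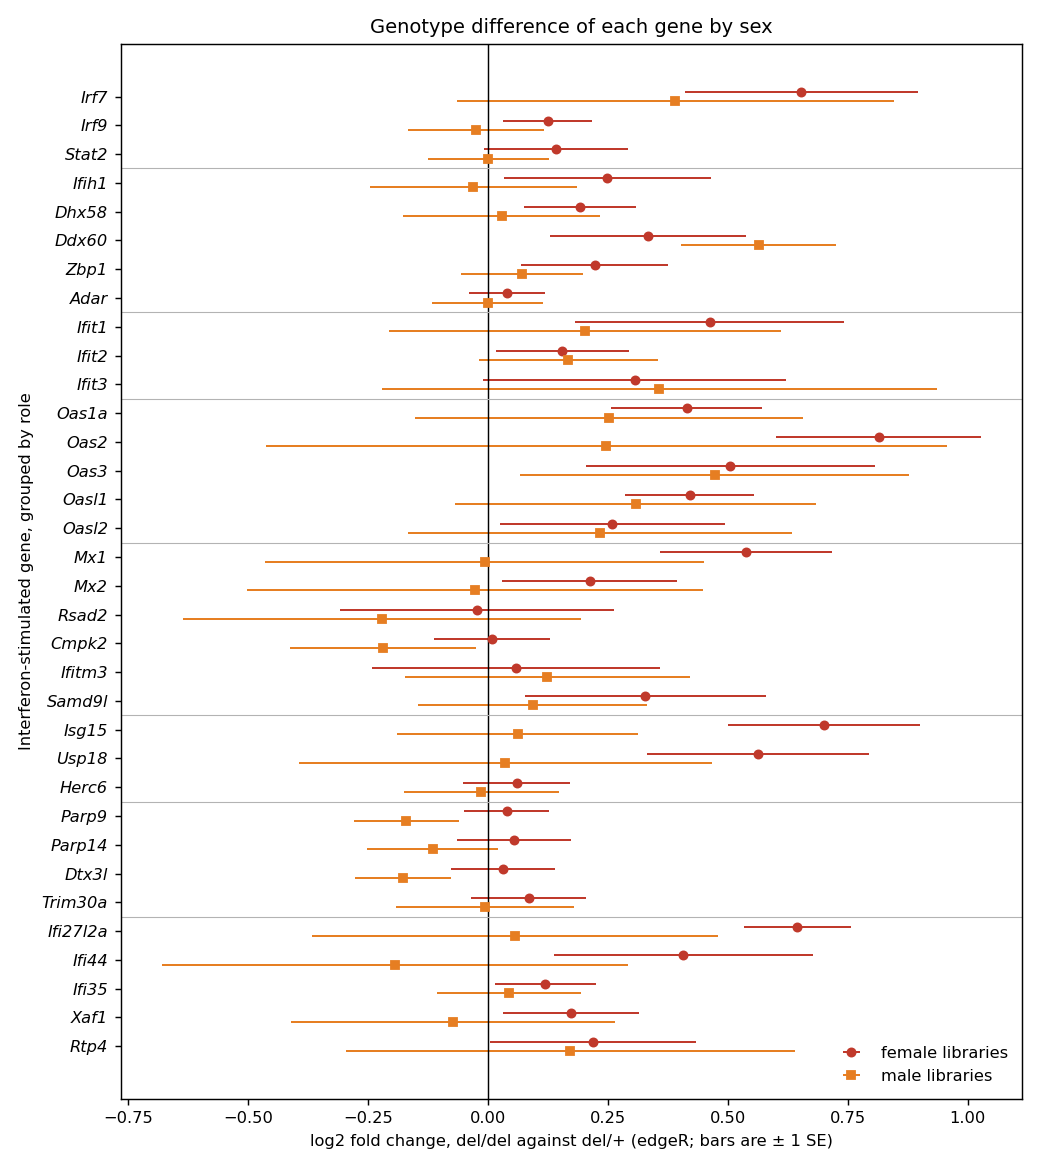
Log2 fold change of del/del against del/+ for each of the 34 genes (rows, in role groups) in females (circles) and males (squares), with bars of ± 1 SE. Female points lie right of 0 except Rsad2, with Oas2 farthest at 0.81; male points lie on both sides of 0, and Ddx60 is the farthest at 0.56.

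The transcription factors of the set were Irf7, Irf9 and Stat2. Irf7 encodes the factor that amplifies interferon production. Its levels were 37.6, 30.1, 24.2, 30.0 and 25.5 CPM in del/+ females and 53.9, 23.7, 57.2, 31.5 and 65.7 CPM in del/del females. Del/del females 1, 3 and 5 were above all controls, while 2 was the lowest of the 10. The log2 fold change was 0.65 (SE 0.242, adjusted p = 0.94). Among males the levels were 59.6, 31.3, 41.2 and 19.4 CPM in del/+ and 23.7, 101, 43.0 and 29.7 CPM in del/del animals. The 101 CPM of del/del male 2 was the highest level of any library, and the male groups overlapped (log2 fold change 0.39, SE 0.456). The male value was 0.68 without del/+ male 1, -0.23 without del/del male 2 and 0.06 without both. Irf9 and Stat2, the DNA-binding and transactivating parts of the STAT complex, were steadier, with log2 fold changes of 0.12 and 0.14 in females and -0.02 and 0.00 in males. Irf9 shares 123 bases with Rnf31 on the same strand, and Irf7 shares 45 with Phrf1, so some reads of these rows could belong to the neighbour.

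The nucleic acid sensors were Ifih1 (MDA5) and Dhx58 (LGP2), both of the RIG-I-like family, together with Ddx60, the Z-form nucleic acid receptor Zbp1, and the RNA-editing enzyme Adar. Ddx60 (mm10 chr8:61928087-62037701) had 12.85, 8.31, 9.98 and 8.44 CPM in del/+ males and 13.8, 17.6, 13.7 and 12.88 CPM in del/del males. All 4 del/del males were above all 4 del/+ males, although del/del male 4 and del/+ male 1 were nearly level. The log2 fold change was 0.56 (SE 0.162, adjusted p = 0.877), and it was 0.59 (adjusted p = 0.565) without del/+ male 1 and del/del male 2. Del/+ females had 5.23, 7.26, 8.03, 5.98 and 5.32 CPM of Ddx60, and del/del females had 10.3, 5.40, 9.35, 8.46 and 6.503 CPM. Here 3 del/del females exceeded all controls and the groups overlapped (log2 fold change 0.33, SE 0.204). The other 4 sensors ranged from 0.04 (Adar) to 0.25 (Ifih1) in females and from -0.03 (Ifih1) to 0.07 (Zbp1) in males. Adar was among the least variable genes, with 149 to 178 CPM in del/+ and 155 to 183 CPM in del/del females. Dhx58 shares 2637 bases with Gm11547 on the other strand, whose row held 37.7 counts a library on average.

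The IFIT proteins bind viral RNA that lacks the host cap mark. None of Ifit1, Ifit2 and Ifit3 had an unadjusted p under 0.05 in either sex. Ifit1 lay at 2.44, 1.82, 2.71, 3.02 and 1.75 CPM in del/+ females and at 4.80, 1.69, 3.01, 3.10 and 3.68 CPM in del/del females (log2 fold change 0.46, SE 0.281). The counts behind these values were low, between 21 and 93 reads a library. Female log2 fold changes were 0.15 for Ifit2 and 0.31 for Ifit3, and male ones 0.20, 0.17 and 0.36 in order of number. Ifit3 reached 20.5 CPM in del/del male 2 and 13.2 CPM in del/+ male 1, while the remaining males had 2.58 to 8.24 CPM. Its male log2 fold change was 0.78 without del/+ male 1, -0.45 without del/del male 2 and -0.01 without both. Ifit3 has a near-identical copy, Ifit3b, with which reads may have been shared.

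The OAS family makes the messenger that activates RNase L, and its OASL members act in RNA sensing and on IRF7. All 5 genes were higher in del/del females, with a median log2 fold change of 0.42, and 3 had an unadjusted p under 0.05. Oas2 (chr5:120730333-120749853) had 7.85, 4.93, 7.18, 4.19 and 4.94 CPM in del/+ and 11.3, 7.38, 8.54, 13.1 and 11.3 CPM in del/del females. Only del/del female 2 fell inside the range of the controls. The log2 fold change was 0.81 (SE 0.214, adjusted p = 0.33), and DESeq2 called it (log2 fold change 0.82, adjusted p = 0.0414). In males the same gene ranged from 2.66 to 29.7 CPM in del/+ (the others 4.75 and 11.8) and from 5.44 to 29.5 CPM in del/del (the others 14.3 and 6.98). The extremes were del/+ males 1 and 4 on one side and del/del male 2 on the other, and the log2 fold change was 0.25 (SE 0.71). It was 1.12 without del/+ male 1, -0.42 without del/del male 2 and 0.46 without both.

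Oasl1 did not overlap between female genotypes: del/+ animals had 10.5, 11.4, 9.41, 10.8 and 10.99 CPM, and del/del animals had 16.9, 14.7, 11.7, 11.7 and 16.0 CPM. Its log2 fold change was 0.42 (SE 0.135, adjusted p = 0.635), and 0.31 (SE 0.377) in males. Oas1a had 5.02, 5.10, 5.45, 6.65 and 4.22 CPM in del/+ and 7.64, 6.79, 6.22, 7.49 and 7.08 CPM in del/del females, so that only del/del female 3 lay within the control range. The log2 fold change was 0.41 (SE 0.157, adjusted p = 0.975) in females and 0.25 (SE 0.404) in males. Without del/del male 2 the male values of Oasl1 and Oas1a were -0.08 and -0.06, and without del/+ male 1 they were 0.63 and 0.77. Oas3 and Oasl2 were at 0.51 and 0.26 in females and at 0.47 and 0.23 in males, without passing any threshold. Oas1a is one of several near-identical Oas1 genes, and reads could have been split between them.

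**Figure D3:**
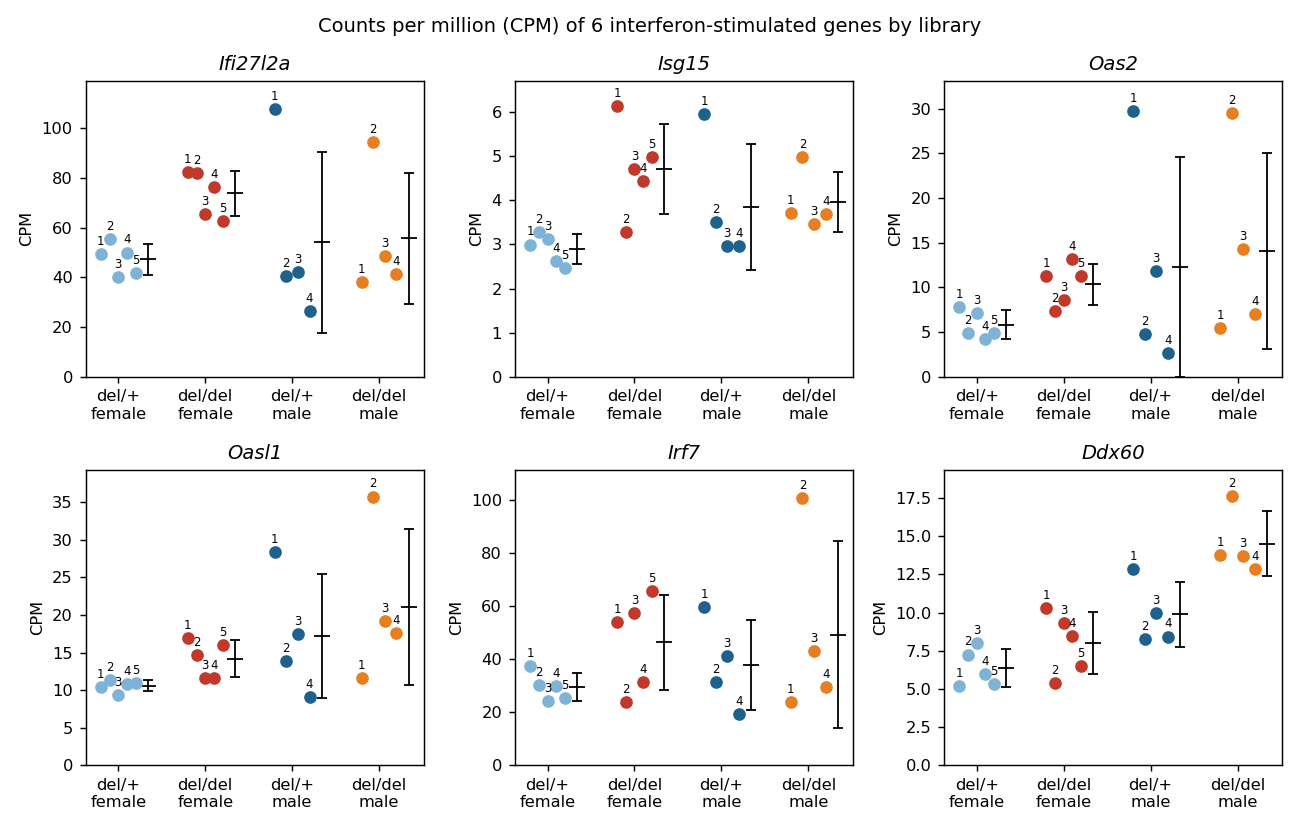
CPM of Ifi27l2a, Isg15, Oas2, Oasl1, Irf7 and Ddx60 in each library, with replicate numbers above the points and the mean ± SD of each group beside them. Ifi27l2a separates female genotypes with del/del females at 62.8 to 82.3 CPM, and del/+ male 1 and del/del male 2 sit above the other males of their groups in each panel.

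The antiviral effectors were Mx1 and Mx2, dynamin-like GTPases that trap viral particles; Rsad2 (viperin) and its neighbour Cmpk2, which act on nucleotides; Ifitm3, which blocks membrane fusion; and Samd9l. Mx1 was at 18.1, 12.8, 13.3, 13.2 and 8.90 CPM in del/+ and 22.7, 14.8, 21.8, 16.8 and 20.4 CPM in del/del females. Del/del females 1, 3 and 5 exceeded all controls (log2 fold change 0.54, SE 0.179, adjusted p = 0.721). In males Mx1 was at 22.9, 7.37, 14.7 and 5.08 CPM in del/+ and 7.06, 20.5, 12.5 and 8.93 CPM in del/del animals, a log2 fold change of -0.01 (SE 0.457). It was 0.42 without del/+ male 1 and -0.38 without del/del male 2. C57BL/6 mice carry a truncated Mx1 gene, so the transcript is read here only as a measure of expression. The other 5 effectors ranged from -0.02 (Rsad2) to 0.33 (Samd9l) in females and from -0.22 (Rsad2) to 0.12 (Ifitm3) in males. Samd9l, the most abundant row of the set by CPM, had 232 to 473 CPM in del/+ females and 261 to 589.8 CPM in del/del females. Del/del females 1, 3 and 5, at 579.3, 485.9 and 589.8 CPM, were above all controls, and the groups overlapped in the other 2 (log2 fold change 0.33, SE 0.25). Ifitm3 departed from the other genes, being lower in del/del male 2 (7.73 CPM) than in the other 3 del/del males (9.94, 18.3 and 10.3 CPM).

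The ISG15 system consists here of Isg15, the ubiquitin-like tag, Usp18, which removes the tag and binds IFNAR2 to quench signalling, and the ligase Herc6. Isg15 (chr4:156199424-156200818, minus strand), whose promoter with its run of GAAA repeats is printed above, had 2.999, 3.285, 3.12, 2.62 and 2.47 CPM in del/+ and 6.14, 3.289, 4.71, 4.44 and 4.97 CPM in del/del females. The groups did not overlap, but del/del female 2 was level with the highest control. The log2 fold change was 0.70 (SE 0.2, adjusted p = 0.446), on 38 to 122 reads a library. In males Isg15 was at 5.96, 3.51, 2.96 and 2.97 CPM in del/+ and 3.72, 4.98, 3.46 and 3.70 CPM in del/del animals (log2 fold change 0.06, SE 0.252). The highest male value came from a control, and the log2 fold change was 0.32 (SE 0.208) without del/+ male 1, -0.07 without del/del male 2 and 0.20 without both.

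Usp18 had 6.66, 7.002, 7.52, 5.14 and 5.92 CPM in del/+ and 12.2, 5.52, 12.2, 6.57 and 11.2 CPM in del/del females. Again del/del females 1, 3 and 5 were high, and 2 and 4 were within the control range (log2 fold change 0.56, SE 0.232, adjusted p = 0.975). The male fold change was 0.04 (SE 0.431), with 14.8 CPM in del/+ male 1 and 13.8 CPM in del/del male 2 against 3.75 to 7.19 CPM elsewhere. It was 0.50 without del/+ male 1 and -0.39 without del/del male 2. Herc6 differed little, at 0.06 in females and -0.01 in males.

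PARP9 and DTX3L form a complex of an ADP-ribosyl transferase-like protein and a ubiquitin ligase, PARP14 is a transferase with macrodomains, and TRIM30A is a ubiquitin ligase that restrains inflammatory signalling. Female log2 fold changes were 0.03 to 0.09, the smallest median of the role groups. All 4 were negative in males, at -0.18 (Dtx3l, SE 0.0999) to -0.01 (Trim30a), and none had an unadjusted p under 0.05 in either sex. Dtx3l, for example, had 91.9 to 124 CPM in del/+ and 92.9 to 136 CPM in del/del females. Parp9 and Dtx3l lie head to head and share 682 bases, and Parp9 also shares 5854 bases with Gm15564.

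The remaining genes were Ifi27l2a, Ifi44, Ifi35, the apoptosis factor gene Xaf1 and Rtp4, a receptor-transporter family gene. Ifi27l2a (ENSMUSG00000079017, chr12:103442167-103443680, minus strand) had 49.2, 55.3, 40.2, 49.99 and 41.6 CPM in del/+ females and 82.3, 81.9, 65.4, 76.5 and 62.8 CPM in del/del females. Each del/del female was above each control. The log2 fold change was 0.64 (SE 0.112), or 1.56-fold, with an adjusted p of 0.0301 (edgeR). The call was lost, at adjusted p values of 0.0552 to 0.122 and log2 fold changes of 0.59 to 0.67, without any of del/+ females 1, 3, 4 or 5 or del/del females 1, 2 or 4, and in a fit of all 18 libraries (0.65, SE 0.289, adjusted p = 0.782), whose spread includes the males. Over the other alternatives the adjusted p lay between 3.4e-05 (DESeq2) and 0.0409. In males the levels were 108, 40.4, 42.2 and 26.3 CPM in del/+ and 38.3, 94.5, 48.6 and 41.2 CPM in del/del animals. A control held the highest of the 8 values (log2 fold change 0.06, SE 0.423), and the difference was 0.61 without del/+ male 1, -0.33 without del/del male 2 and 0.23 (SE 0.176) without both. A paralog, Ifi27l2b, may have taken or lent reads.

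Ifi44 had the largest relative excess of this group in del/+ male 1, at 6.99 CPM against 2.32, 2.09 and 1.09 CPM in the other del/+ males. In females it was at 0.41 (SE 0.27), with 11.9 CPM in del/del female 1 and 3.58 CPM in del/del female 2. Its male log2 fold change was -0.19 (SE 0.486), and 0.50 (SE 0.336) without del/+ male 1. Rtp4, Xaf1 and Ifi35 were at 0.22, 0.17 and 0.12 in females and at 0.17, -0.07 and 0.04 in males. Rtp4 in males was at 0.66 without del/+ male 1 and -0.38 without del/del male 2.

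All 18 libraries were then fitted together with sex as a covariate. Here 29 of 34 genes were higher in del/del, with a median log2 fold change of 0.16. EdgeR called none, as did DESeq2, where 0.556% of 14017 genes were called. Ddx60 (0.44, SE 0.135, adjusted p = 0.307) and Isg15 (0.42, SE 0.169, adjusted p = 0.614) had an unadjusted p under 0.05, beside 4.3% of all genes higher at that level. Without del/+ male 1 the number of such genes was 13, and without del/+ male 1 and del/del male 2 it was 7; it was 6 without del/del male 1, 5 without del/del female 2 and 4 without del/del male 4. None was called in any of these fits.

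Whether the genotype difference itself differed between the sexes was tested with an interaction term. The male difference was smaller than the female one for 31 of 34 genes, with a median of -0.18, but edgeR called none and none had an unadjusted p under 0.05. DESeq2 called none either and had 1 gene at an unadjusted p under 0.05. Over all genes 0% were called and 1.45% had an unadjusted p under 0.05. Isg15 came nearest, at -0.66 (SE 0.315). Without del/+ male 1 the median was 0.04, with 20 of 34 genes positive. Without del/del male 2 it was -0.40, with 2 positive and 3 at an unadjusted p under 0.05, and without del/+ male 4 it was -0.30. The sexes are therefore not shown to differ in these genes.

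Del/+ males were compared with del/+ females for levels, though sex and table of origin cannot be told apart. Fitted levels were higher in males for 29 of 34 genes, with a median log2 difference of 0.26. Called were Ddx60 (0.67, SE 0.197, adjusted p = 0.0212), Adar (0.33, SE 0.1, adjusted p = 0.0259), Dhx58 (0.49, SE 0.168, adjusted p = 0.0438) and Oas3 (1.11, SE 0.383, adjusted p = 0.0441). That is 4 of 34 genes, beside 22.7% of all genes called in either direction. At an unadjusted p under 0.05 there were 8, the others being Zbp1 (0.43, SE 0.155), Oasl1 (0.72, SE 0.285), Samd9l (0.60, SE 0.273) and Irf9 (0.27, SE 0.124), beside 35.9% of all genes. Without del/+ male 1 the median difference was 0.03, and none of the 4 calls remained, while Ifi44 was called lower in males. None of the 34 was called without del/+ female 5 or without del/+ male 3. With the plasmacytoid dendritic cell marker level as a covariate the median was 0.44 and the called genes were Adar, Samd9l and Stat2. The marker sums of del/+ males (346 to 411 CPM) and del/+ females (594 to 1112 CPM) did not overlap. That fit therefore cannot separate the markers from sex. Of the 11 markers themselves, 10 were called lower in males (median -1.32). Of 40 further type I interferon-stimulated genes, 16 were called higher and 2 lower in males.

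The 34 genes also varied within groups more than most genes, and more so among males, whose groups include the libraries that stood apart. The set and all genes were not matched for level. In del/+ and del/del females, 23 and 25 of the 34 were above the all-gene median SD, and in males 33 and 30. The median SD of log2 CPM over del/+ males was 0.52 for the set and 0.16 for all genes, and over del/del males 0.35 and 0.16. In del/+ females it was 0.24 against 0.19, and in del/del females 0.28 against 0.22. Oas2 varied most among males, with an SD of 1.505 in del/+ and 1.09 in del/del animals, and Adar least among del/+ males at 0.15.

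The genes that were high in del/+ male 1 were largely those that were high in del/del male 2. Relative to the other 3 libraries of its group, del/+ male 1 was 2.46 higher on the log2 scale for Oas2, 1.93 for Ifi44, 1.60 for Ifi27l2a, 1.58 for Mx2 and 1.56 for Oas1a, but 0.28 for Adar and 0.32 for Stat2. In del/del male 2 the excess was 1.98 for Ifit3, 1.84 for Oas2, 1.69 for Irf7 and 1.502 for Rtp4, and 0.17 for Dtx3l and Zbp1. Across the 34 genes the excesses had a Pearson r of 0.69 (Spearman 0.72); the 2 libraries come from 1 table but share no reference library. The female genotype differences had an r of 0.68 with the excess of del/+ male 1 and of 0.57 with that of del/del male 2 (Spearman 0.67 and 0.52). These are descriptions across genes, which are not independent replicates, and lowly counted genes are noisier in all 3 measures.

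**Figure D4:**
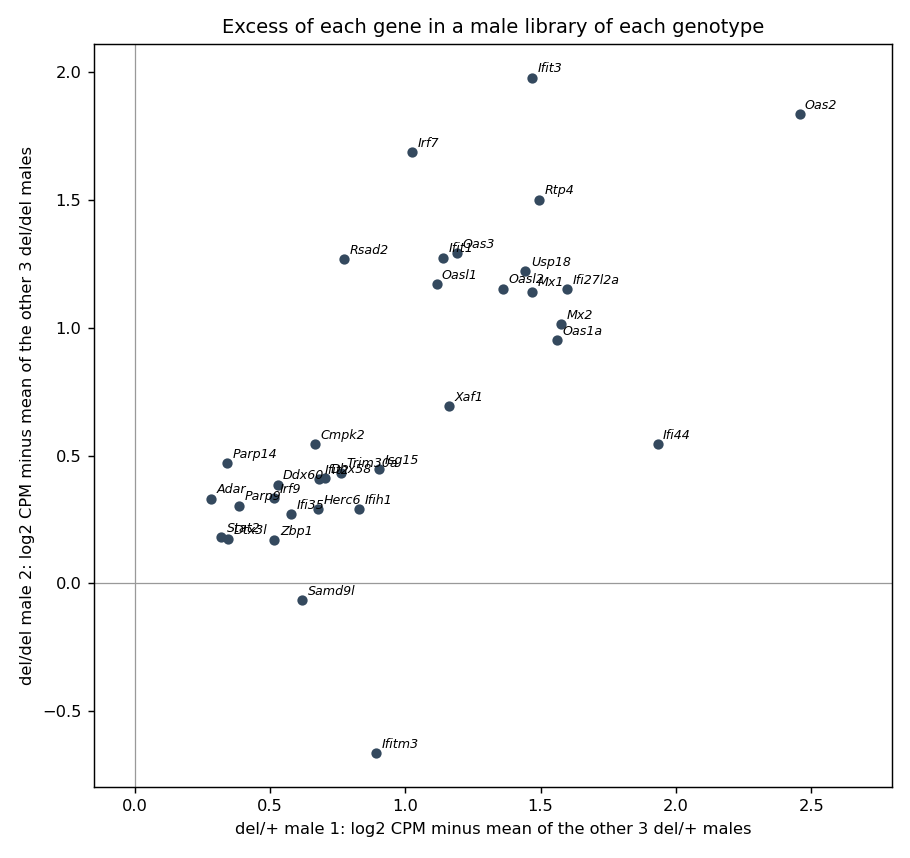
Excess of each of the 34 genes in del/+ male 1 (horizontal) and in del/del male 2 (vertical), each as log2 CPM minus the mean of the other 3 libraries of its group. Every gene lies right of 0, Samd9l and Ifitm3 lie below 0, and Oas2 is high on both axes at 2.46 and 1.84.

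The surrounding pathway was read from lists of genes outside the set, and none of them held a called gene in females, in males or in all libraries together. Of 21 ligand genes, 17 had a row and only Ifng passed the filter, with log2 fold changes of -0.54 in females and -0.41 in males. The 17 rows together held 0.155 to 1.54 CPM a library. All 5 receptor chains with a row were expressed, with medians of 0.06 in females and 0.04 in males and none at an unadjusted p under 0.05. The 7 inhibitors had medians of -0.05 and 0.00. In all libraries together, the transcription factor gene Irf8 was higher at an unadjusted p under 0.05 (0.21, adjusted p = 0.679), and of the inhibitors Ptpn1 was higher (0.16, adjusted p = 0.499) and Socs1 lower (-0.21, adjusted p = 0.56).

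Sensing genes upstream of interferon had medians of 0.12 in females and 0.06 in males over 15 genes. The endosomal RNA receptor Tlr7 was at 0.59 (SE 0.277) in females and 0.47 (SE 0.133, adjusted p = 0.827) in males. Tlr3, at under 5 CPM in every library, was at 1.32 (SE 0.594) in females and 0.56 (SE 0.17) in males. Traf6 went the other way in males, at -0.17 (SE 0.0668) with an unadjusted p under 0.05. Of 40 further type I interferon-stimulated genes tested, 27 were positive in females (median 0.08) and 25 in males (median 0.03). Slfn5, of the Schlafen family, was at 0.59 (SE 0.23) and Sp140 at 0.28 (SE 0.128) in females. Slfn5 had its highest del/+ male value, 70.4 CPM, in male 1 and its highest del/del male value, 89.7 CPM, in male 2. Genes of the interferon gamma response had medians of 0.07 over 23 genes in females and 0.04 over 22 in males. Of these the chemokine gene Cxcl10 was at 1.38 (SE 0.468, adjusted p = 0.749) in females, on 0.349 to 0.838 CPM in del/+ and 0.464 to 2.22 CPM in del/del animals.

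In females most neutrophil and monocyte markers moved in the same direction as the set, and so did markers of plasmacytoid dendritic cells. Of the 11 with a row, all 11 had a positive fold change in females (median 0.44) and 10 in males (median 0.48), and Il3ra was called over all libraries (0.55, SE 0.0832, adjusted p = 0.00111). No marker was at 0 in any library. Their summed level was 1112, 867, 594, 732 and 721 CPM in del/+ females and 1230.2, 767, 1329, 606 and 1379 CPM in del/del females. Del/del females 1, 3 and 5, high in Irf7, Mx1 and Usp18, were the 3 highest. Del/del female 4, with 606 CPM of markers, had 76.5 CPM of Ifi27l2a and 13.1 CPM of Oas2, and del/del female 2, with 767 CPM, had 81.9 and 7.38 CPM. With the mean log2 level of these markers as a covariate, 27 of 34 genes were positive in females (median 0.18) and Ifi27l2a was still called (0.67, adjusted p = 0.0409), while in males 11 of 34 were positive (median -0.06). Over all libraries the median was 0.03 with this covariate.

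In males the summed level of the plasmacytoid dendritic cell markers was set beside the libraries that stood apart. It was 411, 346, 394 and 386 CPM in del/+ males and 545, 470.2, 538 and 320.0 CPM in del/del males. Del/+ male 1 was thus the highest of its group by a small margin, and only 1 del/del male lay below del/del male 2. Del/+ males lay below all del/+ females in this sum. Neutrophil and monocyte markers had medians of 0.22 and 0.25 in females and males, with 11 of 15 and 15 of 15 positive and none called. Their sum was 3401 CPM in del/+ male 1, inside the range of its group, and 1949.8 CPM in del/del male 2, the lowest of its group. By mean log2 CPM of these markers, del/+ male 1 was the highest del/+ male at 6.93, beside 6.71, 6.14 and 6.86. Del/del male 2 was again the lowest of its group, at 6.10. Among females, the neutrophil and monocyte sums were highest in del/del females 3 and 5, at 5298 and 5259 CPM. Del/del female 1 had 1812 CPM, inside the del/+ female range of 1623 to 3753 CPM. T and NK cell markers had medians of -0.15 and -0.20. Erythroid markers had negative fold changes for 10 of 10 genes in each sex (medians -0.88 and -0.68), with none called. By unadjusted p under 0.05, 8 were lower in females and 1 in males. Over all genes, 159 of 13501 were lower at that level in females and 137 of 13413 in males. The 10 B cell markers, Cd79a and Cd79b among them, had medians of -0.01 in females and -0.04 in males. Of these, 3 were positive in females and 2 in males, with none called. Vpreb3 was lower in males at an unadjusted p under 0.05 (-0.27, SE 0.102). The part of these cell types in the results was not tested. The plasmacytoid dendritic cell markers were themselves mostly higher in del/del cells, so the covariate fits cannot separate them from genotype.

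**Figure D5:**
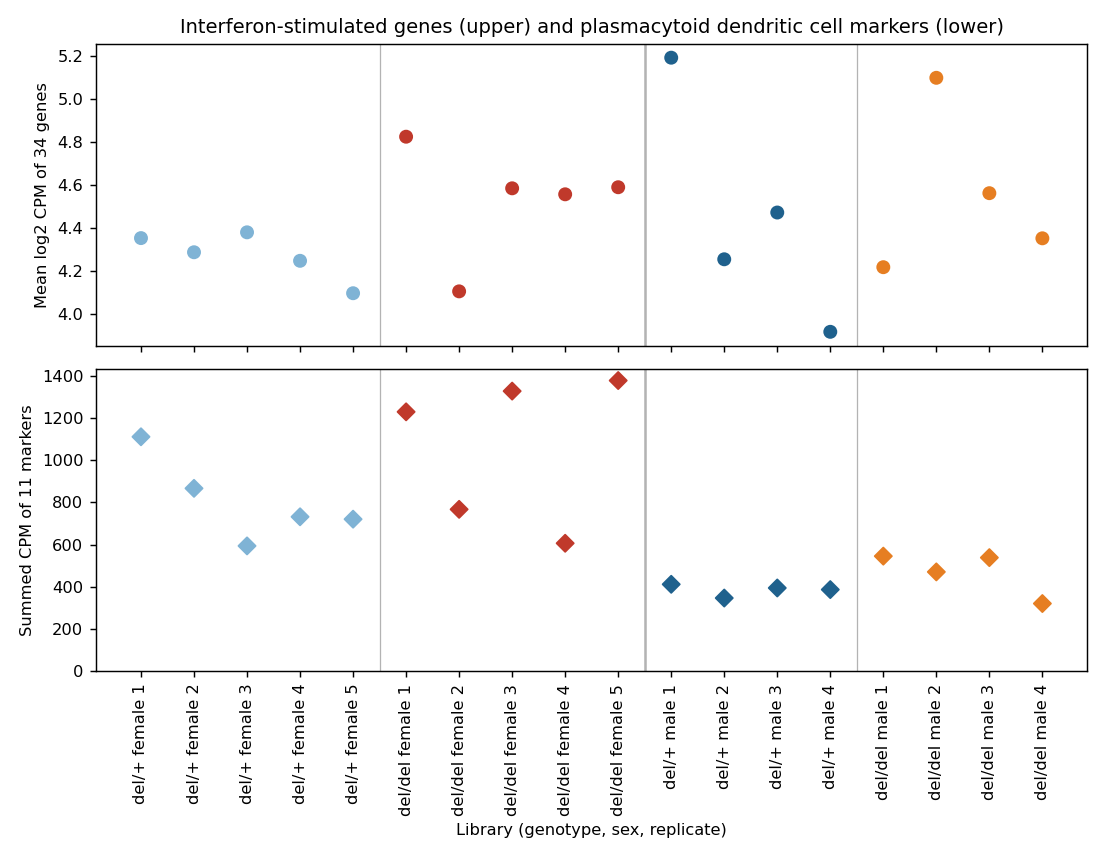
Mean log2 CPM of the 34 interferon-stimulated genes (upper) and summed CPM of 11 plasmacytoid dendritic cell markers (lower) in the 18 libraries. Del/+ male 1 and del/del male 2 have the highest means of the genes at 5.19 and 5.10, with marker sums of 411 and 470.2 CPM. The marker sums of all males lie below those of all females.

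The authors' deposited table gave the same sign as the present fit for all 34 genes in females and for 33 in males, Adar at about 0 being the exception. In the authors' deposited table Ifi27l2a had a log2 fold change of 0.66 with an adjusted p of 0.0189 in females, the only 1 of the 34 under 0.05, and Ddx60 had 0.57 with an adjusted p of 0.773 in males.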

How the data were processed

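Raw counts of reads, not normalized, were deposited for every gene, with females and males in separate files. The processing notes of the submitters name TopHat, Trim Galore, FastQC, bcl2fastq and edgeR 3.32.1, with builds mm10 and GRCm38. Counting program and strand setting are not given in the sources used here. Separate files from the authors hold log2 fold changes and p-values with FDR, per the file headers. Columns of group means, 2 per table, were not used; 56 rows with a name but no identifier stayed in the fits.

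Counts were tested in R 4.3.3 with edgeR 4.0.16 (filterByExpr, minimum count 10, minimum total 15; TMM factors; quasi-likelihood test), after the code had been tested on simulated data. The p-values were adjusted by the Benjamini-Hochberg method over all genes tested, and a gene was called under 0.05. Log2 fold changes are del/del minus del/+. SE is the log2 fold change divided by the square root of F. Log2 CPM used a prior count of 2. Totals of 9788112 to 29405395 counts limit precision for the lowest genes. The labels give each library its own animal number and state no pairs; p-values measure the spread between these animals. As blocks, each del/del animal was joined with the del/+ animal of nearest number: deviations from the genotype means correlated at 0.105 to 0.33 in all 4 male pairs, and at -0.042 to 0.283 in the 5 female pairs.

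The 34 members, the lists and the tests were chosen with earlier results of these data known. Full statistics are given for members called or with an unadjusted p under 0.05, and the rule for each other list was to name called genes and up to 3 of smallest p. Here only some of those are named, chosen after their values were seen, and list genes called between the sexes are given as counts for 2 lists. Alternatives were other scaling (RLE), DESeq2 1.42.0, no filter, a marker covariate, a fit of all 18 libraries, the block, and leaving out each library. Leaving out del/+ male 1 together with del/del male 2 was added after seeing the data. Some genes of the lists are not reported here.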

Additional observations from a re-analysis of the deposited data

Results flagged for a closer look

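Of 136 groups of values (34 genes in 4 groups of 4 or 5 libraries), 6 held a library whose gap to the next exceeded Dixon's limit, and all 6 were high values. Chance flags about 1 in 20 such groups. In del/+ male 1 these were Herc6 at 43.8 CPM (next 29.1), Parp9 at 107 CPM (next 82.7) and Parp14 at 217.3 CPM (next 175). In del/del male 2 they were Ifit3 at 20.5 CPM (next 6.06) and Trim30a at 189.7 CPM (next 143). Cmpk2 in del/del female 1 was the remaining value, at 48.0 CPM (next 37.5).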

How the results depend on the processing

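No result changed sign where it was called. Scaling by RLE and dropping the filter kept every count of calls within 1.5 times. DESeq2 called 2 of the 34 genes in females rather than 1, and 92 of all genes rather than 34. It called 49 of all genes rather than 16 in males, 141 rather than 78 over all libraries, and 4 rather than 0 for the interaction. The fit of all 18 libraries called 0 of the 34 in females and 58 of all genes. With the marker covariate, 5 of all genes were called in males. Leaving out each library gave 0 to 1 of the 34 called in females, 5 to 22 of all genes in males, and, for del/+ males against females, 0 to 5 of the 34 and 2115 to 3630 of all genes. Without del/+ male 1 and del/del male 2, 4 of all genes were called in males and 1 of the 34 between the sexes. The causes of these shifts were not tested. With nearest animal numbers as a replicate block, 1 of the 34 and 23 of all genes were called in females, 0 and 13 in males, and 0 and 88 over all libraries. That block changed no call of a named gene: Ifi27l2a was at 0.64 (adjusted p = 0.0073) in females and Ddx60 at 0.57 (adjusted p = 0.552) in males.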
